A study of Mus musculus with 3 samples.

Results

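The unfolded protein response and the integrated stress response were followed here through 10 genes chosen by symbol. They were the sensor genes Eif2ak3, Ern1 and Atf6, the transcription factor genes Atf4, Xbp1 and Ddit3, and the target genes Trib3, Chac1, Asns and Herpud1. All 10 were found among the 56748 genes of the table, where they filled 11 entries because Ddit3 appears under 2 identifiers. The second Ddit3 identifier, ENSMUSG00000116429, had 0 counts in every library and was not used.

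Gene expression was measured by RNAseq in adult cardiomyocytes (ACMs) from WT mice of 8-10 weeks of age, to identify transcripts that respond to cytokines of the gp130 family. The cells were plated on laminin in medium with serum and then moved to serum-free medium. Exposure lasted 16 h, in serum-free medium that contained BSA and the contraction inhibitor BDM. It was without cytokine (vehicle), with 10 ng/mL human IL-6 or with 10 ng/mL mouse oncostatin M (OSM). RNA of several samples was pooled before sequencing, so that 3 libraries were available, 1 per condition, and no spread between cultures or animals could be measured. The intervals below therefore cover counting error only, and each comparison is one between libraries.

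The libraries held 24939980 counts with vehicle, 26362446 with IL-6 and 30773001 with OSM, at which the limit of detection taken here, 3 counts, is 0.120, 0.114 and 0.0975 CPM. Markers of cardiomyocytes dominated, with a summed level of 8998 to 11512 FPKM (counts scaled by gene length and by library) over 8 genes, whereas the marker sums of fibroblasts, endothelial cells, smooth muscle cells and T cells lay between 0.0406 and 15.8 FPKM. The 6 macrophage markers summed to 13.4 FPKM with vehicle, 14.3 with IL-6 and 39.1 with OSM, almost all of it Cd68, and C1qa and C1qb were at 0 in all libraries. The part of other cells in the results below was not tested, and in bulk RNA fewer cells of a type cannot be told apart from less RNA per cell. Socs3, the feedback inhibitor of JAK-STAT signaling, had 670 counts with vehicle, 646 with IL-6 and 18194 with OSM.

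When unfolded proteins accumulate in the endoplasmic reticulum (ER), its membrane sensors PERK (Eif2ak3), IRE1α (Ern1) and ATF6 each start a branch of the unfolded protein response. PERK phosphorylates the translation factor eIF2α, as do the other kinases of the integrated stress response, which lowers general translation and raises translation of ATF4, a transcription factor for amino acid synthesis and for genes such as Ddit3, Trib3 and Chac1. IRE1α splices Xbp1 mRNA into the form that encodes the active transcription factor, and ATF6 is cut in the Golgi to release one. Both factors act on genes of ER folding and degradation, and in the heart these pathways have been studied mainly in ischemia and hypertrophy. Counts per gene hold neither the splicing of Xbp1 nor the translation of Atf4 nor the cleavage of ATF6, so that only transcript levels are described.

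Transcripts of all 10 genes were detected in every library. With vehicle, Herpud1 was the highest at 426 FPKM, followed by Atf4 at 353 FPKM, Chac1 at 104 FPKM, Trib3 at 103 FPKM, Asns at 74.1 FPKM, Xbp1 at 58.0 FPKM, Ddit3 at 55.6 FPKM, Atf6 at 54.8 FPKM, Ern1 at 8.70 FPKM and Eif2ak3 at 1.36 FPKM. Within this library, the level of Chac1 could not be separated from that of Trib3 (ratio 1.01, 95% interval 0.972 to 1.05), nor that of Xbp1 from Ddit3 (ratio 1.04, 0.993 to 1.10) or of Ddit3 from Atf6 (ratio 1.02, 0.972 to 1.06). The other neighbours in the order differed by more than counting error. Herpud1 was at percentile 99.5 and Eif2ak3 at percentile 37.1 of the protein-coding genes with counts, and the highest level was 313 times the lowest.

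The order was the same with IL-6, where Xbp1 again could not be separated from Ddit3 (ratio 1.04, 0.988 to 1.09), nor Ddit3 from Atf6 (ratio 1.02, 0.973 to 1.06), but Chac1 lay above Trib3 (ratio 1.05, 1.01 to 1.09). With OSM, Atf4 (469 FPKM) was above Herpud1 (456 FPKM) by a ratio of 1.03 (1.01 to 1.04), and Xbp1 (87.8 FPKM) was above Asns (75.9 FPKM) by a ratio of 1.16 (1.12 to 1.20). Every neighbour in the OSM order differed by more than counting error. The sensors had the lowest values of the 10 genes in all libraries, although Atf6 could not be separated from Ddit3 with vehicle or IL-6, and Ern1 moved from percentile 71.6 with vehicle to percentile 56.4 with OSM.

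**Figure D1:**
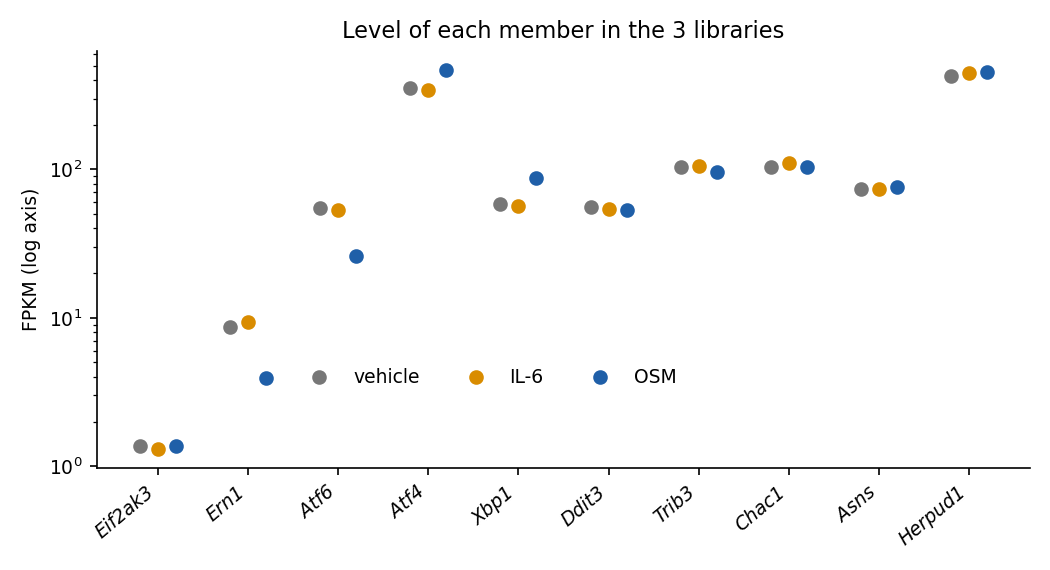
FPKM of the 10 genes on a log axis, with 1 point for each of the vehicle, IL-6 and OSM libraries and no error bars. The OSM points of Atf6 (26.0) and Ern1 (3.94) lie apart below those of vehicle and IL-6, the OSM points of Atf4 and Xbp1 lie above them, and the 3 points of the other 6 genes lie close together.

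The level of Eif2ak3, Ern1 and Atf6 was compared between OSM and vehicle to see how the sensors stood after cytokine exposure. Atf6 and Ern1 transcripts were each more than 2-fold less abundant with OSM than with vehicle, whereas Eif2ak3 was close to equal. A gene was called here when the whole 95% interval of its log2 ratio of counts, scaled by the trimmed mean of M values (TMM), lay beyond 2-fold in either direction. Of the 10 genes, 0 were called higher and 2, Atf6 and Ern1, were called lower with OSM than with vehicle. Over all 15537 genes compared, 3.74% were called higher and 5.43% lower, and the median log2 ratio of the 10 genes was -0.01 beside 0.00 for all genes.

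Atf6 (ENSMUSG00000026663, chr1:170532243-170695340 of GRCm39, minus strand) encodes the sensor that becomes a transcription factor after cleavage. It had 12785 counts with vehicle, 13397 with IL-6 and 7163 with OSM, which are 54.8, 53.6 and 26.0 FPKM. The OSM library was the low one. Atf6 fell 2.11-fold with OSM against vehicle, a log2 ratio of -1.08 (95% interval -1.12 to -1.04). Against IL-6 the log2 ratio was -1.04 (-1.09 to -1.00), an interval whose upper end lay just beyond 2-fold.

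Ern1 (ENSMUSG00000020715, chr11:106285476-106378678, minus strand) encodes IRE1α, the kinase and endoribonuclease that processes Xbp1 mRNA. It had 1799 counts with vehicle, 2089 with IL-6 and 962 with OSM, or 8.70, 9.43 and 3.94 FPKM. The OSM library was again the lowest. Ern1 fell 2.21-fold with OSM against vehicle, a log2 ratio of -1.14 (-1.26 to -1.03), and 2.40-fold against IL-6, a log2 ratio of -1.26 (-1.37 to -1.15).

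Both calls depended on how gene length was treated. The log2 ratio of OSM to vehicle fell with gene length across protein-coding genes, with length taken from the authors' annotation (Spearman's rho -0.52 over 9444 genes, which are not independent), from a median of 0.47 in the shortest eighth of genes to -0.56 in the longest, while the same medians for IL-6 against vehicle were 0.02 and -0.03. This length is the one by which FPKM was scaled, not the span of the gene on the chromosome. By it, Atf6 (9231 bases) and Ern1 (8173 bases) are the longest of the 10 genes, and the running median at their lengths was -0.34 and -0.24. With the running median subtracted, the log2 ratios were -0.73 for Atf6 and -0.91 for Ern1, and neither passed the rule. Of the 500 genes closest in length, 33 (6.60%) were called lower around Atf6 and 31 (6.20%) around Ern1. What underlies the length trend was not tested.

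Eif2ak3 (ENSMUSG00000031668, chr6:70821499-70882229, plus strand) encodes PERK and was the most weakly detected member, with 207 counts with vehicle, 213 with IL-6 and 246 with OSM, or 1.36, 1.30 and 1.37 FPKM. The libraries did not separate. Its log2 ratio of OSM to vehicle was 0.01 (-0.27 to 0.28), so that a difference within this interval was not detectable at this depth, while the log2 ratios of Atf6, Ern1, Xbp1 and Atf4 lie outside it in size.

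**Figure D2:**
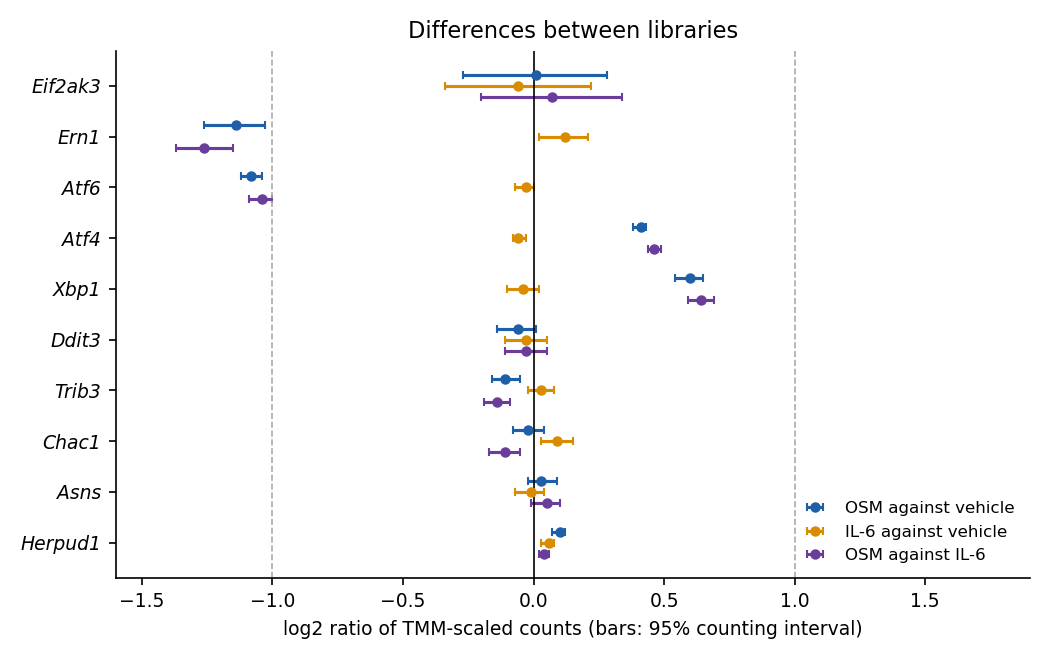
Log2 ratio of TMM-scaled counts of each gene in the 3 comparisons (points), with the 95% counting interval of the 2 counts (bars) and dashed lines at 2-fold. Atf6 and Ern1 lie beyond the lower line in both comparisons of OSM, Atf4 and Xbp1 lie between 0 and the upper line in both, and the IL-6 points of all 10 genes lie between -0.06 and 0.12.

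Among the transcription factors, Xbp1 and Atf4 had more transcripts with OSM than with either other library, by less than the 2-fold of the rule, and Ddit3 was level. Xbp1 (ENSMUSG00000020484, chr11:5470659-5475893, plus strand) is the substrate of IRE1α. It had 4766 counts with vehicle, 4967 with IL-6 and 8517 with OSM, or 58.0, 56.4 and 87.8 FPKM. The log2 ratio was 0.60 (0.54 to 0.65) against vehicle and 0.64 (0.59 to 0.69) against IL-6, or 1.51-fold and 1.55-fold. At its length of 3248 bases the running median was 0.17, and the ratio left after subtracting it was 0.43.

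Atf4 (ENSMUSG00000042406, chr15:80139385-80141742, plus strand) had 21063 counts with vehicle, 21722 with IL-6 and 33006 with OSM, or 353, 340 and 469 FPKM. The OSM library was the highest, and the log2 ratio was 0.41 (0.38 to 0.43) against vehicle and 0.46 (0.44 to 0.49) against IL-6. Genes of this length (2358 bases) had a running median of 0.28 against vehicle, which left 0.13. The pattern was a common one. Of 9440 protein-coding genes whose mean count was at least 100, 519 lay within 0.1 of Atf4 in both log2 ratios to vehicle, and the closest were Tmem242, Traf2 and Safb2, each with a log2 ratio of 0.40 to 0.41 with OSM and -0.06 to -0.05 with IL-6. These distances rest on 3 libraries and share the vehicle library.

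Ddit3 (ENSMUSG00000025408, chr10:127126643-127132157, plus strand) encodes CHOP, the factor linked to cell death under prolonged stress. It had 2409 counts with vehicle, 2526 with IL-6 and 2723 with OSM, or 55.6, 54.4 and 53.2 FPKM. The libraries lay close together, with a log2 ratio of OSM to vehicle of -0.06 (-0.14 to 0.01). The gene overlaps Mars1, transcribed from the other strand, which had 4889, 5483 and 6037 counts over its whole length in the same order of libraries. The overlap runs from 127132090 to 127132157 on chr10, a short stretch at the 3' ends of both genes, beside a Ddit3 gene length of 1713 bases. Whether the counting used strand is not given in the sources used here, so that reads in this stretch may belong to either gene.

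The target genes Trib3, Chac1, Asns and Herpud1 were abundant in every library and differed by at most 1.08-fold between OSM and vehicle. Trib3 (ENSMUSG00000032715, chr2:152179342-152185952, minus strand), a pseudokinase gene induced by ATF4 and CHOP, had 5528 counts with vehicle, 6057 with IL-6 and 6073 with OSM, or 103, 105 and 95.7 FPKM. The OSM library was the lowest in FPKM, with a log2 ratio to vehicle of -0.11 (-0.16 to -0.05).

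Chac1 (ENSMUSG00000027313, chr2:119181710-119184862, plus strand) encodes an enzyme that degrades glutathione. It had 4310 counts with vehicle, 4903 with IL-6 and 5016 with OSM, or 104, 111 and 103 FPKM. The IL-6 library was the highest, and the log2 ratio of OSM to vehicle was -0.02 (-0.08 to 0.04).

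Asns (ENSMUSG00000029752, chr6:7675169-7693254, minus strand), the gene of asparagine synthetase, had 5130 counts with vehicle, 5448 with IL-6 and 6201 with OSM, or 74.1, 73.5 and 75.9 FPKM. Its log2 ratio of OSM to vehicle was 0.03 (-0.02 to 0.09). Within its transcript, 1.29% of the bases had another match in the genome at 97% identity, while none of the other 9 genes had such a match.

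Herpud1 (ENSMUSG00000031770, chr8:95113066-95122005, plus strand) encodes an ER membrane protein of the degradation machinery. It had 25123 counts with vehicle, 28053 with IL-6 and 31783 with OSM, or 426, 444 and 456 FPKM. The log2 ratio of OSM to vehicle was 0.10 (0.07 to 0.12). The 4 targets are 1637 to 2735 bases long, where the running median was above 0, and with the running median subtracted their log2 ratios were -0.45 for Trib3, -0.46 for Chac1, -0.24 for Asns and -0.19 for Herpud1. Such positions were not rare. Of the 500 genes closest in length, 15.4% lay at or below Trib3 and 10.4% at or below Chac1. At or above Asns lay 73.8%, and at or above Herpud1 67.6%. Over the 10 genes, the median with the running median subtracted was -0.34 and 3 genes, Atf4, Xbp1 and Eif2ak3, lay above the median of their length.

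**Figure D3:**
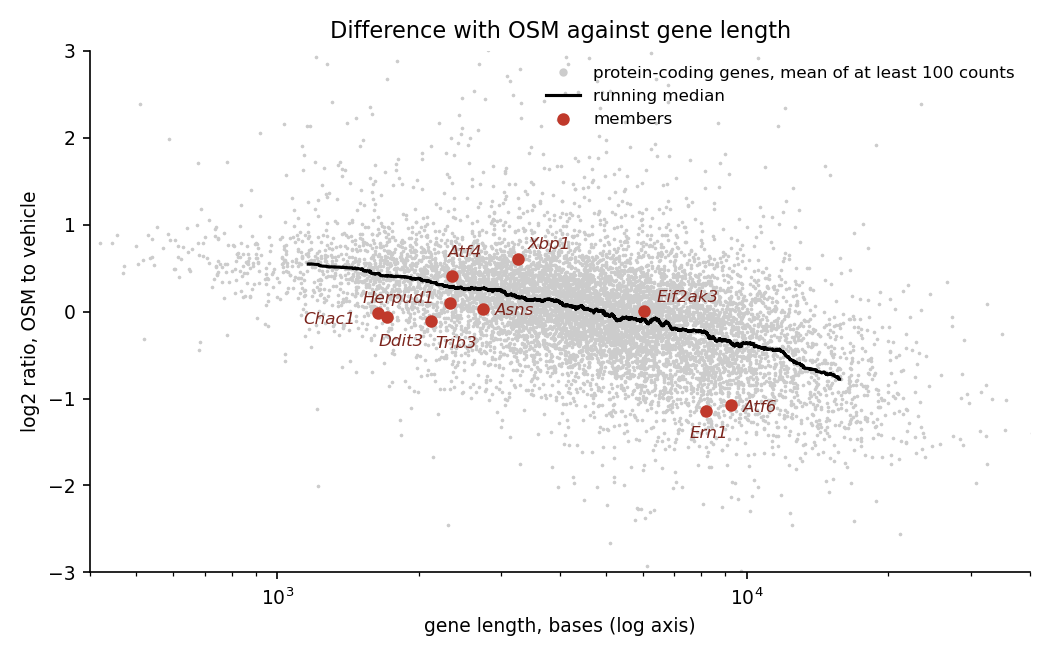
Log2 ratio of OSM to vehicle against gene length in bases as used for FPKM (log axis). Grey points are 9392 protein-coding genes whose mean count was at least 100 (52 more lie outside the axes). The line is the running median of 501 genes, and the red points are the 10 stress response genes. The running median falls with length, Atf6 and Ern1 lie below it on the right, the 4 target genes and Ddit3 lie below it on the left, and Xbp1, Atf4 and Eif2ak3 lie above it.

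Relative to one another within a library, the genes stood differently with OSM. The level of Xbp1 was 6.67 times that of Ern1 with vehicle (6.31 to 7.04), 5.98 times with IL-6 (5.68 to 6.30) and 22.3 times with OSM (20.8 to 23.8). Xbp1 to Atf6 was 1.06 with vehicle, 1.05 with IL-6 and 3.38 with OSM. These ratios are between genes of different length and hold the length trend of the OSM library as well.

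Relative to Atf4, Trib3, Chac1, Asns and Ddit3 were lower with OSM. The ratio of Trib3 to Atf4 was 0.291 with vehicle (0.283 to 0.300), 0.309 with IL-6 (0.301 to 0.318) and 0.204 with OSM (0.199 to 0.210), and that of Chac1 to Atf4 was 0.295, 0.325 and 0.219. Asns to Atf4 was 0.210, 0.216 and 0.162, and Ddit3 to Atf4 was 0.157, 0.160 and 0.114. In each of these 4 ratios the interval of OSM lay below those of vehicle and IL-6, and all 4 have the same Atf4 value as denominator.

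The promoters of the ATF4 targets were read for the motif TGATGNAA, the core of the C/EBP-ATF response element to which ATF4 binds with a C/EBP partner. In the 250 bases before the gene start of the authors' annotation, on either strand, it was found in 3 of the 10 genes, Trib3, Herpud1 and Chac1, and in 3.38% of the 21919 protein-coding genes. With the start of the GENCODE M39 canonical transcript, an alternative chosen after the data had been seen, it was found in Chac1, Ddit3 and Herpud1, beside 3.40% of 21630 genes. TTCNNNGAA, the form bound by STAT factors, was found in Eif2ak3 and in 7.21% of all genes. The ER stress response element in this exact form (CCAAT, 9 further bases and CCACG) was in 0 of the 10 windows and in 0.109% of all. The unfolded protein response element TGACGTGG was in 0 of the 10 and in 0.570%. Variant or inexact forms of these elements were not searched for, so the windows may still hold such forms. The stretches with a match are given from the reference genome, to show where a match lay in one of the windows searched. Capitals mark the motif, in most cases its reverse complement. They are chr2:152185953-152185982 (minus strand) for Trib3, chr8:95112899-95112998 for Herpud1, chr2:119181484-119181583 for Chac1, chr10:127126315-127126414 for Ddit3 and chr6:70821324-70821424 for Eif2ak3 (plus strand).
Trib3: gcagattagctcaggtTTACATCAgccggg
Herpud1: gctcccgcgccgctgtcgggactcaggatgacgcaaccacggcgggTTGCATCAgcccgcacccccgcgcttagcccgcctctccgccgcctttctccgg
Chac1: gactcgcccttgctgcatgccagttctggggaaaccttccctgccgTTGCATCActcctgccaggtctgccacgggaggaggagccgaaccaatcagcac
Ddit3: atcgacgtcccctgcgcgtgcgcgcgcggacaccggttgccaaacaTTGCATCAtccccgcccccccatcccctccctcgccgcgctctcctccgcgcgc
Eif2ak3: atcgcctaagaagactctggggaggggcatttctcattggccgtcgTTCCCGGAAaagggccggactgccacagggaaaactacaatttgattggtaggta

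Trib3, Herpud1, Chac1 and Ddit3, which hold the C/EBP-ATF core in one of the windows, had log2 ratios of OSM to vehicle between -0.11 and 0.10. Asns, the target without that core in either window, was at 0.03. The share of all genes with the core in either window was not counted. Eif2ak3, with the STAT-type match, was at 0.01. A match of letters is no evidence of binding, and the absence of a match concerns this window and these exact letters only.

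IL-6 was compared with vehicle to ask the same of the other cytokine. The transcripts of all 10 genes were close to their vehicle levels, with 0 of 10 called higher and 0 of 10 called lower, beside 1.77% and 1.74% of the 15472 genes compared. Most of those calls were of genes with few counts. With at least 50 counts in the pair, which all 10 genes had, 31 were called higher and 25 lower of 12054. The log2 ratios of the 10 genes ran from -0.06 for Atf4 (-0.08 to -0.03) to 0.12 for Ern1 (0.02 to 0.21), with a median of -0.02. Chac1 was at 0.09 (0.03 to 0.15) and Herpud1 at 0.06 (0.03 to 0.08), Trib3 was at 0.03, Asns at -0.01, Atf6 and Ddit3 at -0.03, Xbp1 at -0.04 and Eif2ak3 at -0.06 (-0.34 to 0.22). Socs3 was at -0.15 (-0.31 to 0.01) in the same comparison and at 4.52 (4.41 to 4.63) with OSM.

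OSM was also set directly against IL-6. Of the 10 genes, 0 were called higher and 2, again Atf6 and Ern1, were called lower, beside 4.24% and 5.42% of the 15544 genes compared. Trib3 was at -0.14 (-0.19 to -0.09), Chac1 at -0.11 (-0.17 to -0.05), Ddit3 at -0.03 (-0.11 to 0.05), Asns at 0.05 (-0.01 to 0.10), Herpud1 at 0.04 (0.02 to 0.06) and Eif2ak3 at 0.07 (-0.20 to 0.34). With the length trend subtracted, Atf6 was at -0.72 and Ern1 at -1.00, and neither passed the rule. The OSM library is shared with the comparison to vehicle, so that the calls are not independent of it.

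Of 7 close relatives of the 10 genes, 6 had enough counts to be compared. Trib1 was the one called, beside 3.74% higher and 5.43% lower of all genes with OSM against vehicle. Trib1, a pseudokinase gene of the family of Trib3, had 143 counts with vehicle, 187 with IL-6 and 1331 with OSM, and rose in the OSM library by a log2 ratio of 2.98 (2.73 to 3.24) to vehicle and 2.69 (2.47 to 2.92) to IL-6. Trib2, the other relative of Trib3, had 253, 218 and 142 counts, at -1.07 (-1.38 to -0.77). Atf6b, the relative of Atf6, had 916, 1038 and 1557 counts, at 0.52 (0.41 to 0.64), a value of opposite sign to that of Atf6. The running median also differed in sign, at 0.27 for the length of Atf6b and -0.34 for that of Atf6. With it subtracted, Atf6b was at 0.25 and Atf6 at -0.73.

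Atf5, a factor translated under stress in the manner of Atf4, had 9547, 10412 and 14731 counts, at 0.38 (0.35 to 0.42). Herpud2 had 3674, 3811 and 3246 counts, at -0.42 (-0.49 to -0.35), and Chac2 had 270, 310 and 285 counts, at -0.16 (-0.41 to 0.08). With the length trend subtracted, Atf5 was at 0.01, Herpud2 at -0.32 and Chac2 at -0.68. Ern2, the relative of Ern1 known from gut epithelium, had 0 counts in all libraries.

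The rest of the 2 pathways was read from 9 lists that hold 125 further genes, of which 123 had enough counts. With OSM against vehicle, 3 of the 123 were called higher, Trib1, Cebpb and Sec61b, and 0 were called lower, beside 3.74% and 5.43% of all genes compared. Their median log2 ratio was 0.13, and 0.01 with the length trend subtracted. With IL-6 against vehicle 0 were called in either direction, beside 1.77% higher and 1.74% lower of all genes (median 0.03). With at least 50 counts in the pair, 31 higher and 25 lower of 12054 genes were called in that comparison. With OSM against IL-6, Trib1 and Cebpb were called higher and 0 lower, beside 4.24% and 5.42% of all genes (median 0.10). At such shares a list of 6 to 18 compared genes would hold few or no calls. A count of 0 in a single list below is therefore no result about that list.

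In the list of kinases, eIF2 subunits and phosphatase subunits of the integrated stress response, 0 of 16 were called in any comparison. Over all genes compared, 3.74% were called higher and 5.43% lower with OSM against vehicle. The median of the list with OSM was 0.21, or 0.00 with the length trend subtracted. Eif2b4, a subunit of the eIF2 exchange factor, had 1407 counts with vehicle, 1595 with IL-6 and 2797 with OSM, at 0.75 (0.66 to 0.84) against vehicle. Eif2ak4, the kinase GCN2 that senses uncharged tRNA, had 273, 267 and 476 counts, at 0.69 (0.47 to 0.91) against IL-6. With the length trend subtracted, Eif2b4 was at 0.48 against vehicle and Eif2ak4 at 0.90 against IL-6. Oma1, a mitochondrial protease upstream of the response, was at 0.28 (0.16 to 0.41) with IL-6.

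Among 15 further transcription factors and effectors, Cebpb was called higher and 0 lower with OSM, beside 3.74% and 5.43% of all genes. The median of the list was 0.22, or 0.01 with the length trend subtracted. Cebpb, which encodes a C/EBP partner of ATF4 and is known as an IL-6 family target, had 1307 counts with vehicle, 1329 with IL-6 and 4087 with OSM, and rose by a log2 ratio of 1.40 (1.31 to 1.49) to vehicle and 1.48 (1.39 to 1.57) to IL-6. With the length trend subtracted it was at 0.92 against vehicle and was no longer called in either comparison. With IL-6, Ddit4, the gene of an mTORC1 inhibitor, was the largest of the well-counted genes of the list, at 0.20 (0.04 to 0.37).

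Of the genes downstream of ATF4 in amino acid metabolism, 0 of 18 were called in any comparison. The share over all genes with OSM against vehicle was 3.74% higher and 5.43% lower. The median of these 18 was 0.01 with OSM and -0.06 with the length trend subtracted. Slc1a4, a neutral amino acid transporter, had 1478 counts with vehicle, 1625 with IL-6 and 864 with OSM, at -1.02 (-1.14 to -0.89) against vehicle and -1.05 (-1.17 to -0.93) against IL-6, with intervals that reached across 2-fold. With the length trend subtracted, Slc1a4 was at -1.15 and -1.17. Cth, an enzyme of cysteine synthesis, was at 0.39 (0.15 to 0.63) with IL-6. Of 12 aminoacyl-tRNA synthetases and the tRNA exporter gene Xpot, 0 were called and the median with OSM was 0.08, or 0.07 with the length trend subtracted, with Iars1 at -0.72, Eprs1 at -0.78 against IL-6, and Tars1 at 0.17 with IL-6. The subtraction left Iars1 at -0.63 against vehicle and Eprs1 at -0.02 against IL-6.

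Of the ER chaperones and folding enzymes, targets of ATF6 and XBP1, 0 of 16 were called in any comparison. The share over all genes with OSM against vehicle was 3.74% higher and 5.43% lower. The median of these 16 was 0.23 with OSM and 0.03 with the length trend subtracted. Sdf2l1, the gene of an ER chaperone partner, had 3237 counts with vehicle, 3854 with IL-6 and 6812 with OSM, at 0.83 (0.77 to 0.89). With the length trend subtracted, Sdf2l1 was at 0.29. Of 17 genes of ER-associated degradation, 0 were called and the median with OSM was 0.18, which turned to -0.09 with the length trend subtracted. Sel1l, a scaffold of the degradation ligase, had 12899, 13956 and 9146 counts, at -0.74 (-0.78 to -0.70), Edem3 was at -0.76 (-0.86 to -0.67) against IL-6, and Derl3 was at 0.39 (0.29 to 0.48) with IL-6. The subtraction left Sel1l at -0.42 against vehicle and Edem3 at -0.66 against IL-6.

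Of 15 genes of ER sensors, site proteases and transport into the ER, Sec61b was called higher with OSM and 0 lower. Over all genes the shares were 3.74% and 5.43%. The median of the list was 0.32, or 0.28 with the length trend subtracted. Sec61b, a subunit of the protein channel, had 237 counts with vehicle, 390 with IL-6 and 715 with OSM. It rose by a log2 ratio of 1.35 (1.14 to 1.57) with OSM against vehicle, was at 0.62 (0.38 to 0.86) with IL-6, and with the length trend subtracted was at 0.83 and no longer called. Mbtps2, the protease that makes the last cut of ATF6, was at -0.84 (-0.98 to -0.70) against IL-6, or -0.48 with the length trend subtracted. Of 8 mitochondrial chaperones and proteases, 0 were called and the median with OSM was 0.03, or -0.14 with the length trend subtracted. Clpp was at 0.56 (0.46 to 0.66) with OSM, or 0.02 with the subtraction, and Hspe1 was at 0.19 (0.11 to 0.27) with IL-6.

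**Figure D4:**
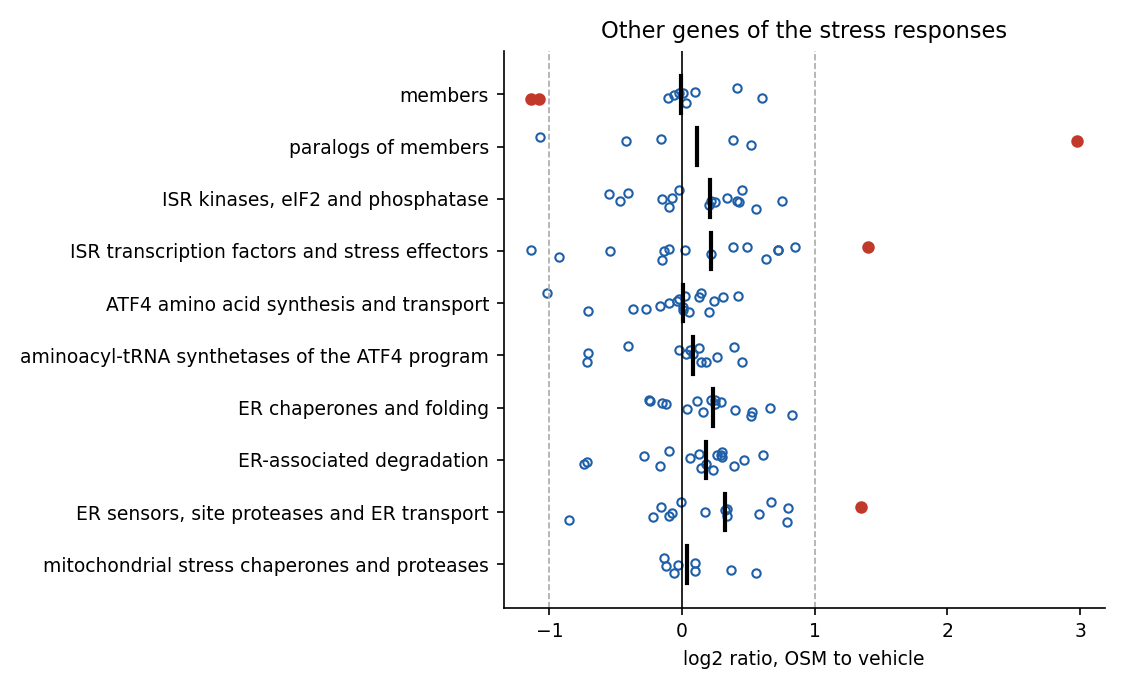
Log2 ratio of OSM to vehicle for the compared genes of each list (circles, jittered vertically), with called genes filled in red, the median of each list as a black bar and dashed lines at 2-fold. The medians lie between -0.01 and 0.32, and the filled points are Atf6 and Ern1 on the lower side and Trib1, Cebpb and Sec61b on the higher side.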

How the data were processed

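RNAseq of 3 libraries of pooled ACM RNA (vehicle, IL-6 and OSM) was analysed. Per the labels and the study's methods, poly-A RNA was sequenced and reads were aligned to GRCm39. The submitters' processing notes name fastp, HISAT2 2.2.1, featureCounts 2.0.6 and edgeR 4.0.16. The authors deposited whole-number counts per gene, not normalized, and FPKM, which equal the counts divided by gene length and by 1 constant per library. Depth was 24939980 to 30773001 counts.

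Libraries were scaled with TMM (edgeR 4.0.16, R 4.3.3) over all genes for each pair. Genes with at least 10 counts in the pair were compared by the log2 ratio of scaled counts. Its 95% interval is Clopper-Pearson, from 1 count as a share of both, and a gene was called when the whole interval lay beyond 2-fold. With 1 library per condition no P-value is given, and those of the edgeR alternative below rest on a presumed variation and served to count calls only. FPKM served to compare genes within a library. The length trend is the running median over 501 protein-coding genes whose mean count was at least 100. Promoter windows were read from GRCm39, and 56017 of 56748 identifiers were found in GENCODE M39. All columns of sample values were matched to a sample (0 left over).

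The 10 genes, the lists and the rules were chosen with earlier results of these data known. Named by rule were the 10 genes and their relatives, up to 3 called genes of each list in each direction, or else the gene with the largest log2 ratio among those whose mean count was at least 100 and an interval without 0, Socs3 and Osmr, and the 3 genes most like Atf4. Osmr, the OSM receptor gene, had 1023, 1199 and 2929 counts. The remaining genes named in the closing section, Stc2, Nupr1, Creb3l1, Hspa5, Gdf15 and Atf3, were chosen with their values in view. The alternatives were DESeq2 1.42.0 factors, library totals, FPKM ratios, other filters and thresholds, the exact test of edgeR at a presumed coefficient of biological variation (BCV), and removal of the length trend.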

Additional observations from a re-analysis of the deposited data

How the results depend on the processing

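The log2 ratios of the 10 genes stayed on their side of the threshold in 232 re-computations. In the other 8, Atf6 and Ern1 were no longer called against vehicle and against IL-6, with a 4-fold threshold and with the length trend removed. Many of the 232 could not differ, so their number is no measure of stability. The count filters left these genes unchanged, since each had at least 207 counts in every library. The settings of threshold and point estimate reused the same log2 ratio. The edgeR tests, given below as counts of calls, are outside this tally. The log2 ratios of Atf6 and Ern1 with OSM were below 0 under each setting that gave one, which the edgeR tests did not. Among the genes near 0, Asns, Eif2ak3 and Herpud1 changed sign: with library totals, Eif2ak3 was at -0.05 and Asns at -0.03 with OSM against vehicle, Asns at 0.01 with IL-6, and Eif2ak3, Herpud1 and Asns at -0.02, -0.04 and -0.04 with OSM against IL-6, and with the length trend removed Herpud1 and Asns were at -0.19 and -0.24 with OSM against vehicle and at -0.23 and -0.22 against IL-6. The count of members lower with OSM against vehicle was 2, and 0 with a 4-fold threshold, by edgeR's exact test at a BCV of 0.2 or 0.4, and with the length trend removed. Against IL-6 it was 2, then 0 at 4-fold, 1 (Ern1) at BCV 0.2, 0 at BCV 0.4 and 0 with the length trend removed. Pathway genes higher with OSM against vehicle went from 3 to 1 at 4-fold (Trib1), 0 at BCV 0.4 and 1 with the length trend removed (Trib1), and against IL-6 from 2 to 1, 0 and 1 under the same settings. Pathway genes lower with OSM against vehicle went from 0 to 1 by library totals (Stc2), 3 by the point estimate (Slc1a4, Stc2 and Trib2) and 1 with the length trend removed (Slc1a4). Against IL-6 they went from 0 to 1 with DESeq2 factors (Stc2), 2 by library totals (Slc1a4 and Stc2), 4 by the point estimate (Creb3l1, Nupr1, Slc1a4 and Stc2) and 2 with the length trend removed (Creb3l1 and Slc1a4). With IL-6 against vehicle, 2 pathway genes were higher by the point estimate (Creb3l1 and Nupr1, with at most 61 counts in any library). The causes were not tested, apart from the stricter or looser construction of each rule. No paired analysis was possible because each condition has 1 library, and none could be left out. Over all genes, the 581 higher and 844 lower with OSM against vehicle became 43 and 11 at BCV 0.4. Depth limits Eif2ak3 most, at 207 to 246 counts.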

Other observations

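Several stress response genes outside the rule for named genes, chosen after their values had been seen, were abundant in all 3 libraries. Hspa5, the main ER chaperone, had 1278 FPKM with vehicle, 1299 with IL-6 and 1377 with OSM, with a log2 ratio of OSM to vehicle of 0.11 (0.10 to 0.12). Gdf15, a secreted stress factor, had 325, 329 and 457 FPKM, at 0.49 (0.46 to 0.52). Atf3, a factor induced by ATF4, had 139, 141 and 229 FPKM, at 0.72 (0.68 to 0.76). None of them was called. With the length trend subtracted, Hspa5 was at 0.05, Gdf15 at 0.09 and Atf3 at 0.39.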
